A study of Macaca radiata with 6 samples.

Results

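The genes described here are 3 WNT ligands (WNT5A, WNT7A and WNT7B), 1 secreted modulator of WNT ligands (SFRP1) and 1 WNT co-receptor (LRP6), measured in the monkey corpus luteum (CL). Every probe set whose single gene symbol is one of these was taken, which gave 10 of the 52707 probe sets analysed and 5 of the 14132 genes with a named probe set. The 5 genes were picked from the WNT pathway by their signals on these same 6 arrays, with the CET against VEH differences known, so those differences are given as a description with standard errors and without a test. WNT5A and SFRP1 had 3 probe sets each, LRP6 had 2, and WNT7A and WNT7B had 1 each.

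The study examined which luteal genes respond when LH support, and with it progesterone (P4), is lost. CL tissue came from female bonnet monkeys (Macaca radiata) on day 7 of the luteal phase. In the CET group (n = 3) Cetrorelix, an antagonist of the GnRH receptor, was injected once under the skin at 150 μg/kg BW, and in the VEH group (n = 3) the vehicle, 5.25% glucose, was given. CL were removed 24 h later, and total RNA of each was hybridised to 1 Affymetrix array designed for the rhesus macaque, a related species. According to the series text both treatments were given to the same monkeys, but which samples share an animal is not in the labels. The spread between replicates is therefore the spread between these samples. Whole tissue was measured, so fewer cells of a type and less RNA per cell cannot be told apart.

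WNT proteins are secreted, lipid-modified ligands that bind Frizzled receptors at the cell surface. Together with the co-receptor LRP5 or LRP6 they can block the destruction of beta-catenin, which then acts with TCF/LEF factors on transcription, whereas other WNT signals run through the planar polarity and calcium branches without beta-catenin. Secreted Frizzled-related proteins such as SFRP1 bind WNT ligands outside the cell. In the mouse ovary, WNT5A made by granulosa cells is needed for normal follicle development.

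Signals were compared as log2 values after quantile normalization, which gives every array the same distribution. Across the arrays the mean log2 signal under which 40% of probe sets fall was 7.43, and a probe set under it is called dim. No detection calls were used here, so a dim value cannot be told from background. Signals of different probe sets were compared only to pick the brightest of a gene and to call probe sets dim. Apart from that, the level of 1 gene was not set against that of another, since probes differ in how well they bind. Signs of RNA quality were uneven: for GAPDH, the 3′ control probe set was 142.9 times as bright as the 5′ one in CET replicate 2, 5.89 and 3.03 times in CET replicates 1 and 3, and 1.79 to 7.31 times on the VEH arrays. The 7.31 was that of VEH replicate 4, whose ratios for ACTB (22.4) and EF1A (9.56) were also the highest in VEH. For these transcripts the ratios were 37.2 and 42.2 in CET replicate 2 and 9.42 and 4.68 in CET replicate 1. CET replicate 1 stood apart from its group: its Spearman correlation over probe sets was 0.665 and 0.663 with the other CET arrays and 0.747 to 0.761 with the VEH arrays. CET replicates 2 and 3 correlated at 0.754 with each other, while CET replicate 3 reached 0.770 with VEH replicate 6. STAR, the protein that delivers cholesterol for steroid synthesis and a defining luteal gene, was bright on all arrays, at 14.85, 12.75 and 13.65 in CET and 15.23, 15.58 and 14.91 in VEH.

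Over all 52707 probe sets, limma with Benjamini-Hochberg adjustment called 0% at an adjusted p under 0.05, although 2840 had an unadjusted p under 0.05. The smallest adjusted p was 0.827, so no probe set on these arrays passed. Of the 10 WNT probe sets, 6 had a lower and 4 a higher mean in CET than in VEH. In 3 of them all 3 CET values were below all 3 VEH values, which was so for 5.25% of all probe sets, and in 2 they were above, which was so for 5.9%. By the criterion of 1.5-fold that the study applied, 6 were lower and 3 higher, against 23.8% and 23.9% of all probe sets. Because the genes were picked with these differences known, nothing is read from the shares.

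**Figure D1:**
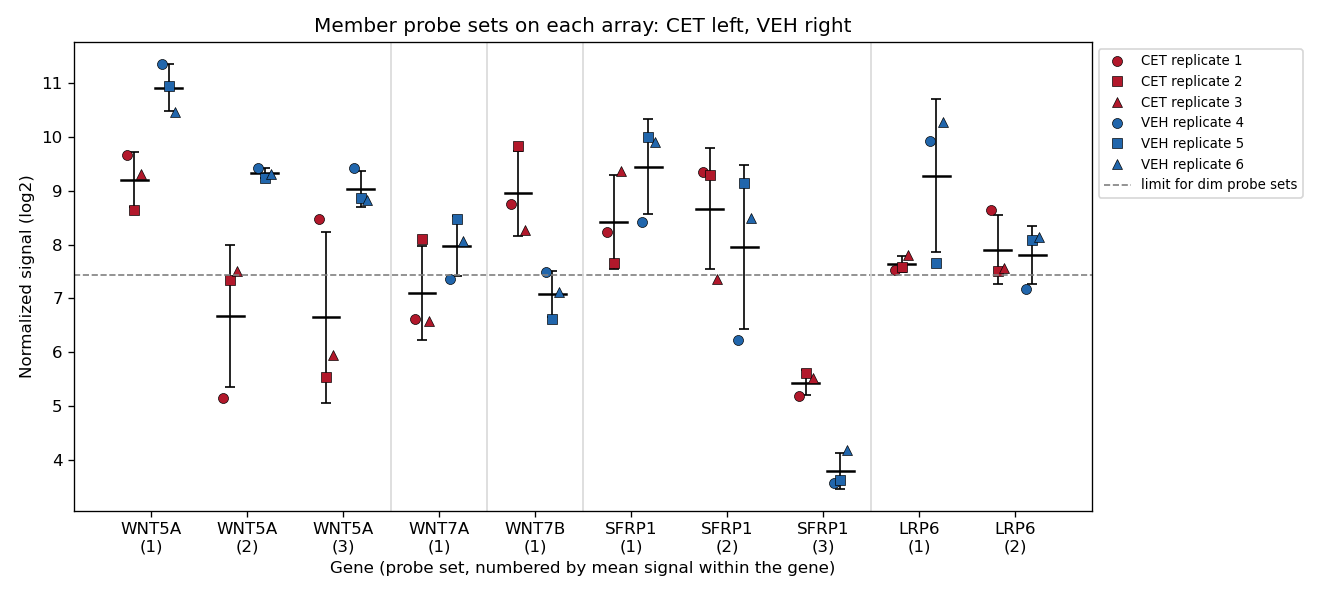
Normalized log2 signal of the 10 probe sets on each array, with CET left and VEH right for each probe set. Points are single arrays, bars are the mean ± SD (n = 3 each) and the dashed line is the limit for dim probe sets. The CET arrays lie below the VEH arrays at all 3 WNT5A probe sets and above them at the WNT7B probe set, and the groups overlap at WNT7A, at both LRP6 probe sets and at 2 of 3 SFRP1 probe sets.

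WNT5A, a ligand best known for signalling without beta-catenin, was lower in CET than in VEH on every probe set and every array. On its brightest probe set (MmugDNA.8926.1.S1_s_at) the signal was 9.67, 8.65 and 9.32 in CET replicates 1 to 3, against 11.35, 10.95 and 10.47 in VEH replicates 4 to 6. The groups were separated by 0.80, and the difference was -1.71 (standard error 0.47), a 3.28-fold lower signal in CET. The deposited linear signals of the same probe set, before normalization between arrays, were 777, 413 and 690 in CET and 2722, 2235 and 1417 in VEH.

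The second WNT5A probe set (MmugDNA.25072.1.S1_at) read 5.15, 7.35 and 7.51 in CET and 9.42, 9.23 and 9.32 in VEH, a difference of -2.65 (standard error 0.73). Here the VEH arrays were tightly grouped (SD 0.09), the CET arrays were not (SD 1.32), and the gap between the groups was 1.72. The third (the only one of the 3 whose identifier does not begin with MmugDNA) read 8.47, 5.54 and 5.94 in CET and 9.42, 8.87 and 8.82 in VEH. Its difference was -2.39 (standard error 0.81), and its groups were only 0.35 apart. On these probe sets the CET mean (6.67 and 6.65) was in the dim range while the VEH mean (9.32 and 9.04) was above it, so the size of the difference there is uncertain.

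The WNT5A probe sets did not order the CET arrays alike. CET replicate 1 was the highest CET array on the first probe set and on the third, and the lowest on the second, where it differed from the VEH mean by -4.17. On the third probe set it differed from the VEH mean by -0.57, whereas CET replicates 2 and 3 differed from it by -3.50 and -3.10. Averaged over the 3 probe sets these departures largely cancelled: the CET arrays read 7.76, 7.18 and 7.59 and the VEH arrays 10.07, 9.69 and 9.54 (SD 0.30 and 0.27), a difference of -2.25. By Affymetrix naming, the suffix _s_at marks a probe set whose probes are shared by several transcripts. Of the 10 probe sets, only the first and the third of WNT5A carry it.

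With 1 array left out at a time, the WNT5A difference stayed between -1.94 and -1.43 on the first probe set, between -3.07 and -1.89 on the second and between -3.30 and -1.83 on the third. Leaving out CET replicate 1 gave -1.94, -1.89 and -3.30. Leaving out CET replicate 2, the array with the high GAPDH ratio, gave -1.43, -2.99 and -1.83. Adjusted for the 3′/5′ ratio of control transcripts, the differences were -1.62, -2.76 and -2.26.

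WNT7A and WNT7B are closely related ligands that in many tissues signal through beta-catenin, and WNT7A is known for its part in the development of the mouse female reproductive tract. The 2 genes differed in sign. The WNT7A probe set (MmugDNA.17213.1.S1_at) read 6.61, 8.11 and 6.58 in CET and 7.37, 8.47 and 8.06 in VEH. CET replicate 2 lay inside the VEH range and the other CET arrays below it, so the groups overlapped. The difference was -0.87 (standard error 0.72), close to its own error, and ranged from -1.37 without CET replicate 2 to -0.61 without CET replicate 3, with -0.62 without CET replicate 1. The CET mean of 7.10 was dim and the VEH mean of 7.97 was not far above the limit. The deposited signals were 109, 274 and 114 in CET and 174, 300 and 260 in VEH. The paper reports that real-time RT-PCR of WNT7A ran inverse to its array data in this model. It also reports that WNT7A mRNA rose after LH/P4 depletion.

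WNT7B was the only one of the 3 ligands with a higher signal in CET. Its probe set (MmugDNA.2656.1.S1_at) read 8.76, 9.83 and 8.27 in CET and 7.49, 6.62 and 7.12 in VEH. All CET arrays were above all VEH arrays, with a gap of 0.79, and the difference was 1.88 (standard error 0.65), or 3.68-fold. The VEH mean of 7.08 was in the dim range, so the fold rests on a dim VEH level. Deposited signals were 446, 958 and 347 in CET and 188, 72.0 and 137 in VEH. CET replicate 2 had the highest signal; without it the difference was 1.44, the lowest with any 1 array left out, and the highest was 2.22 without CET replicate 3. Without CET replicate 1 it was 1.97. Adjusted for the 3′/5′ ratio of control transcripts it was 1.43.

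**Figure D2:**
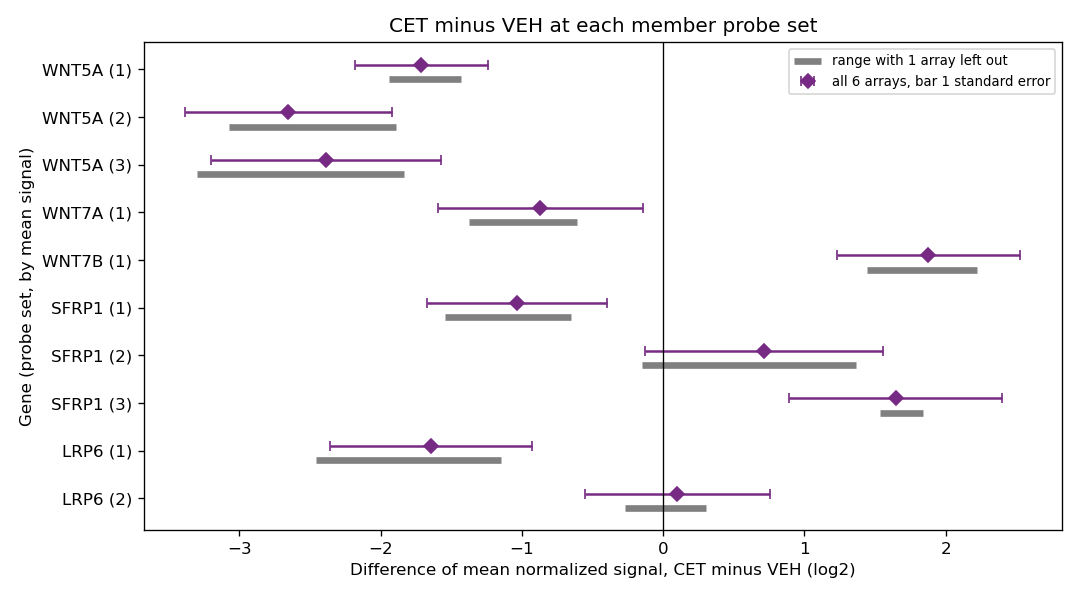
Difference of mean normalized log2 signal, CET minus VEH, for each of the 10 probe sets, with 1 standard error, and below it in grey the range when 1 array is left out at a time. The 3 WNT5A probe sets lie between -2.65 and -1.71 and WNT7B at 1.88, while the probe sets of SFRP1 and of LRP6 lie on both sides of 0.

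SFRP1 showed no common direction. Its brightest probe set (MmuSTS.4330.1.S1_at) read 8.23, 7.65 and 9.37 in CET and 8.43, 10.01 and 9.92 in VEH, a difference of -1.03 (standard error 0.64). VEH replicate 4 lay among the CET arrays. The second (MmugDNA.31186.1.S1_at) read 9.35, 9.30 and 7.37 in CET and 6.23, 9.15 and 8.50 in VEH, a difference of 0.71 (standard error 0.84), with wide spread in both groups (SD 1.13 and 1.53). Without VEH replicate 4 it was -0.15, so its sign rested on that array. Without CET replicate 1 the differences at these probe sets were -0.94 and 0.37.

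The third SFRP1 probe set (MmugDNA.34907.1.S1_at) read 5.18, 5.61 and 5.52 in CET and 3.57, 3.61 and 4.18 in VEH. The groups were 0.996 apart and the difference was 1.65 (standard error 0.76), but both groups were well below the limit for dim probe sets, and when all signals were raised to at least the 20th percentile (6.18) the difference was 0. The mean over the 3 SFRP1 probe sets was 7.58, 7.52 and 7.42 in CET and 6.08, 7.59 and 7.53 in VEH. All but VEH replicate 4 lay within a narrow range there, and the difference of 0.44 had the opposite sign to that of the brightest probe set. Of the SFRP1 probe sets the brightest moved most when adjusted for the 3′/5′ ratio, to a difference of -0.45. Without CET replicate 2 its difference was -0.65. Whether RNA quality or the sample itself lay behind these shifts was not tested.

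For LRP6, the single-pass co-receptor that WNT ligands bring together with Frizzled, the 2 probe sets differed. The first (MmugDNA.38421.1.S1_at) read 7.53, 7.58 and 7.81 in CET and 9.93, 7.65 and 10.27 in VEH, a difference of -1.64 (standard error 0.71). The CET arrays were close together (SD 0.15), VEH replicates 4 and 6 were far above them, and VEH replicate 5 lay within the CET range. The difference was therefore -2.46 without VEH replicate 5 and -1.15 without VEH replicate 6, and it was -1.59 without CET replicate 1. The second (MmuSTS.842.1.S1_at) read 8.64, 7.50 and 7.56 in CET and 7.18, 8.09 and 8.14 in VEH. Its groups overlapped throughout, and its difference of 0.10 (standard error 0.66) ran from -0.27 without CET replicate 1 to 0.30 without CET replicate 2. The gene had no direction that both probe sets shared, and the mean of the 2 was 8.09, 7.54 and 7.69 in CET and 8.56, 7.87 and 9.21 in VEH.

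The rest of the WNT pathway was read at the brightest probe set of each gene, from lists that hold 168 genes besides the 5 above, of which 132 had a named probe set. Of these, 75 had a lower and 57 a higher mean in CET, and the median difference was -0.10, against -0.08 over all genes, of which 54.7% were lower. With signals as deposited, and also without CET replicate 3, 66 were lower and 66 higher. At an unadjusted p under 0.05 from limma, 1 was lower and 2 higher, while 3.01% of all genes were lower and 2.02% higher at that p. Groups did not overlap in 4 genes with lower CET values (6.45% of all genes) and in 6 with higher CET values (5.07% of all genes). None passed the adjusted p. Without CET replicate 1, 12 were lower and 8 higher at an unadjusted p under 0.05.

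The 3 genes with an unadjusted p under 0.05 were BTRC, CXXC4 and VANGL1. BTRC, the subunit that recognises phosphorylated beta-catenin for ubiquitination, read 10.05, 11.15 and 9.88 in CET and 8.46, 8.13 and 8.69 in VEH. Its difference was 1.93 (standard error 0.51, adjusted p = 0.827 by limma), and it was higher in 3 of 3 CET arrays than in any VEH array. CXXC4, which binds Dishevelled and restrains the signal, read 8.30, 5.15 and 8.10 in CET and 9.84, 9.52 and 8.98 in VEH, a difference of -2.26 (standard error 0.82, adjusted p = 0.827 by limma). CET replicate 2 stood far below the others there, and without it the difference was -1.25. VANGL1, a membrane protein of the planar polarity branch, read 11.20, 11.79 and 11.58 in CET and 10.58, 10.29 and 10.11 in VEH, a difference of 1.20 (standard error 0.40, adjusted p = 0.827 by limma). Among the pathway genes named here with several probe sets, VANGL1 (of 3), LGR4, CTBP1 and WNT5B (of 2) had 1 probe set with the opposite sign, FZD1 had 2 of 4 and AXIN2 3 of 4.

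**Figure D3:**
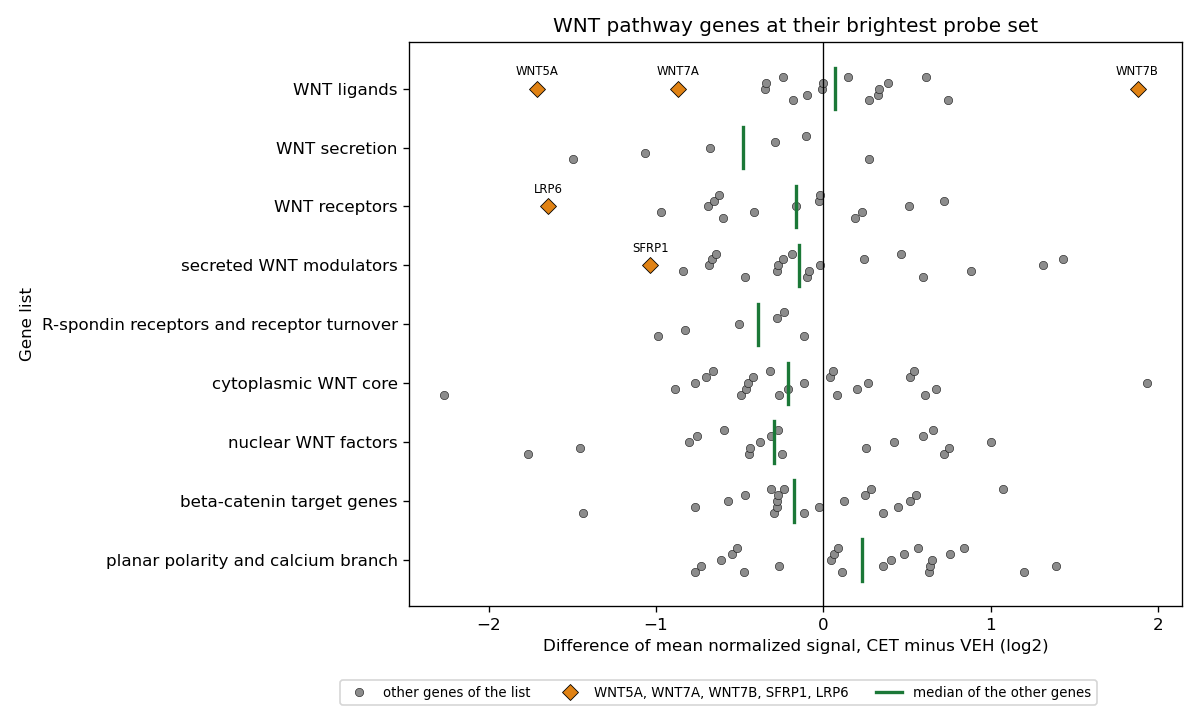
Difference of mean normalized log2 signal, CET minus VEH, of WNT pathway genes at their brightest probe set, by gene list. Grey points are single genes, green lines the median without the 5 genes described here, and orange diamonds those 5 genes. WNT5A, WNT7A and WNT7B lie outside the range of the 14 other measured ligands, from which they were picked with these values known.

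Among the other ligands, 14 of 16 had a probe set, 7 with a lower and 7 with a higher mean in CET, and none had an unadjusted p under 0.05 or groups that did not overlap. The differences ran from -0.35 for WNT5B, the closest relative of WNT5A, to 0.74 (standard error 0.59) for WNT2B. WNT5B read 7.06, 10.58 and 8.95 in CET and 9.37, 9.11 and 9.15 in VEH, so its CET arrays lay on both sides of the VEH arrays. WNT10B had a difference of 0.34 (standard error 0.61), and WNT4, a ligand needed for ovarian development in mice, was dim on all arrays (5.00 to 5.33 in CET and 4.14 to 5.20 in VEH). Of the genes for ligand release, 6 of 8 had a probe set and 5 were lower in mean. VPS26A and VPS29, parts of the retromer that recycles the WNT carrier WLS, had differences of -1.06 (standard error 0.50) and -1.49 (standard error 0.87), and the cargo receptor TMED10 of -0.67 (standard error 0.47). Without CET replicate 2 these were -0.64, -0.35 and -0.31, and adjusted for the 3′/5′ ratio they were -0.61, -0.40 and -0.26. PORCN, which adds the lipid to WNT proteins, was the only one with a higher mean, by 0.27 (standard error 0.60).

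Of the other receptors, 13 of 16 had a probe set, 9 with a lower and 4 with a higher mean, and the groups of all 13 overlapped. LRP5, the paralogue of LRP6, was dim in mean and read 5.74, 6.30 and 5.52 in CET and 8.11, 6.67 and 4.74 in VEH. Among the Frizzled receptors, FZD1 had a difference of 0.72 (standard error 0.52), FZD8 of -0.69 (standard error 0.73) and FZD7 of -0.41 (standard error 0.49). The FZD1 difference was 0.18 without CET replicate 2, 0.29 adjusted for the 3′/5′ ratio and 0.30 with array medians subtracted in place of quantile normalization. ROR2, a receptor through which WNT5A can signal, read 8.47, 8.93 and 6.92 in CET and 7.79, 7.87 and 7.97 in VEH, a difference of 0.23 (standard error 0.68). Of a list of genes for R-spondin reception and receptor turnover, which also held other surface proteins such as TSPAN12 and GPC4, 6 of 8 had a probe set. All 6 had a lower mean at the brightest probe set, as had 54.7% of all genes. LGR4 and some others of the list had 1 probe set of the opposite sign. The lowest differences were those of the R-spondin receptor LGR4 (-0.99, standard error 0.53), TSPAN12 (-0.83, standard error 0.84) and the proteoglycan GPC4 (-0.50, standard error 0.59).

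Of the list of secreted modulators besides SFRP1, which also held some membrane-bound modulators, 18 of 21 had a probe set, 12 lower and 6 higher in mean. RSPO3, an R-spondin that strengthens WNT signals, was the only one whose groups did not overlap: 9.0, 8.34 and 9.45 in CET and 8.20, 7.88 and 8.05 in VEH, a difference of 0.89 (standard error 0.55). SFRP2, from the same family as SFRP1, read 11.35, 7.03 and 8.45 in CET and 9.43, 9.90 and 10.01 in VEH, with the CET arrays on both sides of the VEH arrays and a difference of -0.84 (standard error 0.88). DKK1, which blocks LRP5 and LRP6 and is itself a target of beta-catenin, had a difference of -0.46 (standard error 0.64).

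In the cytoplasmic core 23 of 32 genes had a probe set, 13 lower and 10 higher in mean, among them the beta-catenin kinase GSK3B at -0.89 (standard error 0.58). Of the nuclear factors 18 of 23 had one, 11 lower and 7 higher. The transcription factor SOX17 had a difference of -1.77 (standard error 0.96), the Groucho relative TLE5 of -1.46 (standard error 0.77) and the co-repressor CTBP1 of 1.0 (standard error 0.52). Without CET replicate 3 SOX17 was at -0.53 and TLE5 at -0.66, and CTBP1 was at 0.41 with array medians subtracted. Of the target genes of beta-catenin 20 of 27 had one, 12 lower and 8 higher. CD44, a hyaluronan receptor, was above VEH on every CET array (9.42, 9.99 and 10.24 in CET, 8.19, 9.27 and 8.97 in VEH), a difference of 1.07 (standard error 0.50). CCND1, the cell cycle gene for cyclin D1, had a difference of 0.55 (standard error 0.49) and FST, which binds activin, of -1.44 (standard error 0.79), or -0.41 without CET replicate 3. AXIN2, the target most often used as a readout of beta-catenin, was dim in mean and spread widely in both groups (4.28 to 7.86 in CET and 5.81 to 7.92 in VEH), so these arrays say little about it. LGR5 read 8.33 to 10.32 in CET and 9.30 to 9.82 in VEH.

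In the planar polarity and calcium branch 22 of 27 genes had a probe set. At the brightest one, 7 were lower and 15 higher in mean. The median difference was 0.23, against -0.08 over all genes, of which 54.7% were lower. Some genes of each direction had other probe sets of the opposite sign, so the count depends on the probe set read. Besides VANGL1, the calcium-dependent kinase subunit CAMK2G did not overlap between groups (9.97, 9.58 and 9.76 in CET, 8.92, 8.52 and 9.36 in VEH), a difference of 0.84 (standard error 0.47). PPP3CB, a catalytic subunit of calcineurin, had a difference of -0.77 (standard error 0.44). The remaining pathway genes whose groups did not overlap were PPARD, CREBBP and RUVBL1, with differences of -0.57, -0.75 and -0.44, and BCL9 with 0.59. PPARD, CREBBP, RUVBL1, BCL9, PORCN, WNT4, LRP5, ROR2, AXIN2 and LGR5, and the markers CDH5, TEK, COL3A1 and KRT7, fall outside the naming rule and were added after their values were seen.

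Markers of the cells that the tissue could hold moved with the groups to different degrees. Of 8 steroidogenic luteal markers 5 had a probe set, all above the limit for dim probe sets and all lower in mean, and the mean of the list per array was 11.79 to 13.48 in CET and 13.58 to 14.35 in VEH. STAR had a difference of -1.49 (standard error 0.53) and HSD3B2, a progesterone-forming enzyme, of -0.48 (standard error 0.44). The fibroblast list (5 of 6 with a probe set) averaged 10.65 to 11.39 in CET and 11.31 to 11.77 in VEH, and 3 of the 5 were lower and 2 higher in mean. Its collagen gene COL1A1 read 12.12, 8.42 and 6.56 in CET and 12.56, 10.98 and 11.44 in VEH, with the opposite sign at the other of its 2 probe sets, while COL3A1 had a difference of 0.20 (standard error 0.50). The endothelial list (8 of 8) averaged 8.93 to 10.44 in CET and 10.02 to 10.33 in VEH, with 6 genes lower and 2 higher in mean. PECAM1 was at -0.04 (standard error 0.49), VWF at -0.67 (standard error 1.0), CDH5 at -1.52 (standard error 0.55) and TEK at 0.84 (standard error 0.59).

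The epithelial list (10 of 10, of which 5 were dim) averaged 6.46 to 7.07 in CET and 7.03 to 7.56 in VEH, with 7 genes lower and 3 higher in mean. Its keratin KRT18 read 8.75, 8.82 and 6.76 in CET and 9.87, 10.51 and 9.40 in VEH, and KRT8 read 8.63, 3.71 and 7.77 in CET and 7.83, 8.39 and 8.38 in VEH. The KRT8 difference was -0.0015 without CET replicate 2, and the dim keratin KRT7 was higher on every CET array than on any VEH array, with a difference of 0.82 (standard error 0.79). The pericyte and smooth muscle list (3 of 7) averaged 9.88 to 10.33 in CET and 9.88 to 10.84 in VEH. In it 2 genes were lower and 1 higher in mean. The immune list (4 of 7) averaged 8.10 to 9.44 in CET and 8.72 to 9.04 in VEH. Here 2 genes were lower and 2 higher in mean. PTPRC was at -0.54 (standard error 0.61), with the opposite sign at 1 of its 4 probe sets. No marker was at 0 on these arrays, which give a signal to every probe set. The part of cell composition in the WNT differences was not tested.

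Over the 6 arrays, the genes with the profile most like each of the 5 were sought among the 10928 genes that were not dim. The likeness was Pearson's r of normalized log2 signal, which includes the difference between groups and is given as a description. For WNT5A they were MACIR (r = 0.995), TIMM13 (0.988) and GFPT1 (0.978), for WNT7A SMARCA2 (0.988), TLCD4 (0.979) and OXGR1 (0.976), and for WNT7B the transcription factor gene GATA2 (0.983), EEPD1 (0.981) and TECTB (0.980). SFRP1 was most like CNTNAP2 (0.993), TCEAL9 (0.992) and NEURL4 (0.990), and LRP6 most like BRME1 (0.989), MREG (0.964) and ZNF275 (0.959). Spearman's rho was 0.771, 0.486 and 0.771 for the 3 genes most like LRP6 and 0.886 to 1 for the others. With 6 arrays an r over 0.9 was not particular to the genes named. Of the 10928 genes searched, 20 for LRP6 to 139 for SFRP1 reached it.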

How the data were processed

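CL RNA of 3 CET and 3 VEH samples was measured on Affymetrix rhesus arrays, 1 array a sample. The deposited intensity values are MAS5 signals per probe set on a linear scale, scaled by the authors to a trimmed mean of 500 on each array. The MAS5 version is not given in the sources used here. Signals under 1 were set to 1 (29 values), and log2 values of all 52865 probe sets were quantile-normalized, after which 158 control probe sets were left out. The fit of CET against VEH used limma (version 3.58.1, R version 4.3.3) with no covariates, eBayes with a trend on intensity, and Benjamini-Hochberg adjustment over 52707 probe sets. Differences are of mean log2 signal, CET minus VEH, with limma's standard errors. The platform annotation gave 1 symbol for 24956 probe sets, several for 361 and none for 27390; only single symbols were used. Each gene was represented by its brightest probe set (mean of 6 arrays). Precision is limited by the number of arrays, with a median SD between replicates of 0.846 in log2 units.

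The 5 genes, the pathway and marker lists and the alternatives were chosen with earlier results of these data known. Named genes are all probe sets of the 5 genes, up to 3 genes above the dim limit of each pathway list by smallest unadjusted p, fixed marker genes (ACTA2 had no probe set) and the 3 most similar profiles. Alternatives were the signals as deposited, array medians, a pseudocount of 16, a floor, removal of dim probe sets, a fit with no trend, weights per array, the methods' t-test, each replicate left out in turn, means over the probe sets of a gene, and adjustment for the 3′/5′ ratio of control transcripts. No sequences are shown, and arrays of LH replacement were not used here.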

Additional observations from a re-analysis of the deposited data

How the results depend on the processing

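With quantile normalization the median difference was -0.08 over all genes, and it was 0.0042 with signals as deposited and -0.20 with array medians subtracted. The differences of WNT5A, WNT7A, WNT7B and the first LRP6 probe set kept their sign under every alternative run. The second LRP6 probe set was at -0.17 with array weights. When all probe sets of a gene were averaged, SFRP1 was at 0.44 and WNT5A at -2.25, against -1.03 and -1.71 at their first probe sets. The third SFRP1 probe set was at 2.06 with signals as deposited, 0.97 with a pseudocount of 16 and 0 with the floor. With 1 array left out at a time, the third SFRP1 probe set ran from 1.54 to 1.84, the second from -0.15 to 1.37 and the first from -1.55 to -0.65.

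Probe sets at an unadjusted p under 0.05 numbered 5086 with array weights, 1756 with dim probe sets left out, and 1696 (without VEH replicate 5) to 6997 (without CET replicate 1) with 1 array left out. The count at an adjusted p under 0.05 was 0 under every alternative run. The pathway genes with lower CET values at an unadjusted p under 0.05 numbered 5 with array medians, 5 with array weights, 2 with the floor, 2 with signals as deposited, 0 with the methods' t-test and 1 to 12 with 1 array left out, the most without CET replicate 1. Those with higher values numbered 1, 4 and 4 with array medians, array weights and the floor, and 1 to 8 with 1 array left out, again the most without CET replicate 1. The pathway median was -0.14 when adjusted for the 3′/5′ ratio, -0.19 with array medians, -0.039 with gene means, 0.0065 with signals as deposited and -0.13 to -0.0037 with 1 array left out. The cause of these shifts was not tested.

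For 49 single genes named from the pathway and marker lists, 651 values under the alternatives kept their sign and their side of an unadjusted p of 0.05, 38 newly passed it, 24 no longer did and 18 turned sign. Leaving out 1 array moved the difference by over 1.5 times, or turned its sign, in 38 of the 49 genes (22, 23 and 17 genes without CET replicates 1, 2 and 3), and adjusting for the 3′/5′ ratio did so in 19. BTRC stayed past an unadjusted p of 0.05 under all its alternatives, CXXC4 missed it when adjusted for the 3′/5′ ratio, with the methods' t-test and without VEH replicate 4, and VANGL1 missed it with array medians and without VEH replicate 6. Signs turned, with the range over arrays left out, for DKK1 (-0.80 to 0.0080, highest without CET replicate 3), FZD8 (-1.62 to 0.11, highest without CET replicate 1), TSPAN12 (-1.69 to 0.058, highest without CET replicate 1), SFRP2 (-2.04 to 0.12, highest without CET replicate 2), VWF (-1.64 to 0.85, highest without CET replicate 3), PECAM1 (-0.55 to 0.37, above 0 without CET replicate 1, CET replicate 3 or VEH replicate 5), WNT10B (-0.16 to 0.81, below 0 without CET replicate 2 or VEH replicate 4), AXIN2 (-1.69 to 0.10, highest without CET replicate 2), COL3A1 (-0.043 to 0.58, lowest without CET replicate 2), LGR5 (-0.74 to 0.26, highest without CET replicate 1), LRP5 (-1.54 to 0.15, highest without VEH replicate 4), ROR2 (-0.18 to 0.82, lowest without CET replicate 2, and -0.15 when adjusted for the 3′/5′ ratio) and WNT5B (-1.20 to 0.55, highest without CET replicate 1, and 0.026 with array weights).

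No paired analysis was possible because the labels do not tie CET to VEH samples of the same animal, and the groups share no replicate numbers. With 3 arrays a group, the number of arrays limits what can be called, and signals near background are the least certain.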
